A study of Mus musculus with 2 samples.

Results

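The protocadherin genes were all records whose gene symbol begins with Pcdh, and there were 71 of them among 23746 records in the deposited tables. They comprised 15 alpha (Pcdha), 22 beta (Pcdhb) and 22 gamma (Pcdhg) records of the gene clusters on chromosome 18 and 12 non-clustered genes. The data are RNA sequencing libraries of 2 medulloblastomas, tumours of the mouse cerebellum, with 1 library per genotype. Both animals carried CAG-CreER, a tamoxifen-inducible Cre recombinase under a broadly active promoter, together with Rosa26-SmoM2, an activated Smoothened that switches on Hedgehog signalling, and both received 10 tamoxifen injections. The wild-type library came from a Brg1+/+ tumour and the knockout library from a Brg1F/F tumour, in which Cre can delete the floxed alleles of Brg1 (gene Smarca4), the ATPase of the BAF chromatin remodelling complex. Ages were not given in the sources used here. RNA was taken from whole dissected tumour tissue, and the promoter that drives Cre is not restricted to tumour cells. With 1 library per genotype no difference below has a replicate error or a test, and "higher" and "lower" compare these 2 libraries.

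Protocadherins are cadherin-like adhesion proteins of the cell surface, most of them made by neurons. In the alpha and gamma clusters each gene begins with its own large variable exon, which is spliced to constant exons at the end of its cluster, whereas each beta gene is a single exon of its own. Individual neurons switch on a few of the alpha, beta, gamma A and gamma B promoters, seemingly at random, and the resulting mixture of homophilic proteins lets a neuron tell its own branches from those of others. The C-type genes (Pcdhac1, Pcdhac2, Pcdhgc3, Pcdhgc4 and Pcdhgc5) are chosen by cell type and not at random. The non-clustered delta protocadherins act one gene at a time in cell sorting, axon growth and synapse formation.

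Values are FPKM, read fragments scaled by transcript length and by mapped fragments, so levels of different genes are compared per length. Each pair of values gives the wild-type library first and the knockout library second. All FPKM together came to 388032 and 343028. Smarca4 itself had 14.05 and 3.76 FPKM. Xist had 268 and 0.37 FPKM and the Y-linked gene Ddx3y 0.0069 and 25.1 FPKM, so a difference of sex and the difference of genotype cannot be told apart. Marker genes of the labelled tumour type were present: the 6 markers of dividing granule precursors summed to 439 and 106 FPKM. All 6 passed the 2-fold rule given below, being lower in the knockout, beside 8.67% of the expressed records defined below. The 6 granule neuron markers summed to 152 and 506 FPKM, the 5 Purkinje cell markers to 16.5 and 767 FPKM, the 4 GABAergic interneuron markers to 50.1 and 244 FPKM, and the 5 oligodendrocyte markers to 46.9 and 552 FPKM. The 6 astrocyte and Bergmann glia markers summed to 305 and 1388 FPKM, the 5 microglia markers to 22.9 and 64.5 FPKM, the 6 endothelial markers to 24.9 and 89.7 FPKM and the 6 fibroblast and pericyte markers to 39.4 and 131 FPKM. The 4 oligodendrocyte precursor markers went the other way, 179 and 61.8 FPKM. Some sums hide unlike genes. Of the endothelial markers Ly6c1 had 10.2 and 66.5 FPKM, whereas Kdr had 0.813 and 0.906 FPKM. In the fibroblast and pericyte list Lum alone was lower in the knockout library, with 7.63 and 5.48 FPKM. No marker gene was at 0 in either library. Since the tissue is a mixture, a change in the number of cells of a type and a change in the RNA of each cell cannot be told apart, and the part of these cell types in the differences below was not tested.

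Most protocadherin genes had more RNA in the knockout library. Of all 71 records, 66 had a higher and 5 a lower FPKM there: the exceptions were Pcdha12, Pcdhgc3, Pcdh12, Pcdh15 and Pcdh18. Across all 23746 records 10808 (45.5%) were higher and 7578 lower in the knockout library, and the others had equal values in both. Among the 13279 records that reached at least 1 FPKM in at least 1 library, called expressed, 54.8% were higher there. Of the protocadherins 55 were expressed and 16 stayed under 1 FPKM in both libraries; 32 reached 1 FPKM in both, 20 only in the knockout and 3 only in the wild-type library. Of all expressed records 9.59% reached it only in the knockout and 2.15% only in the wild-type library. The 20 passed through the library in which they were high, so counts over the 55 are a description. The log2 ratio used below is log2((knockout FPKM + 1)/(wild-type FPKM + 1)), which makes ratios of low genes smaller than on the FPKM scale. Records with this ratio at 1 or above, or at -1 or below, were called 2-fold. By this rule 16 of the 55 were higher and 1 lower, beside 16.1% of expressed records higher and 8.67% lower. Over all records without the filter the same 16 of 71 stand beside 9.01%. A record under 1 FPKM in both libraries cannot reach 2-fold by this rule, so that share adds no support to the filtered one. With 0.5 FPKM added in place of 1 FPKM, 27 of the 55 were 2-fold higher, beside 19.1% of expressed records. At a cutoff of 1.5-fold 41 were higher, beside 28.1%, and at 4-fold 2 were higher, beside 4.17%. The deposited bounds of the knockout value lay wholly above those of the wild-type value in 46 of the 55 and wholly below in 4 (Pcdha12, Pcdhgc3, Pcdh15 and Pcdh18), beside 41.6% and 36.1% of expressed records, and wholly above in 57 of all 71, beside 27.7%. How the bounds were made is not known from the labels, and they carry no spread between animals. The median log2 ratio of the 55 was 0.83, beside 0.09 for all expressed records (interquartile range -0.41 to 0.68). Of the 52 expressed protocadherins under 10 FPKM in both libraries 49 had a higher FPKM in the knockout, beside 62.0% of expressed records that low, and 14 were 2-fold higher and 1 lower, beside 17.1% and 4.4%. The median log2 ratio of these records was 0.82 for protocadherins and 0.22 for all. Rescaling FPKM to the same sum in each library raised the median of all expressed records by 0.15, and all 71 protocadherins kept their direction under it. Centring on the median of expressed records turned the direction of Pcdhb1, Pcdhgc4 and the record Pcdha4-g, which is near 0.

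**Figure D1:**
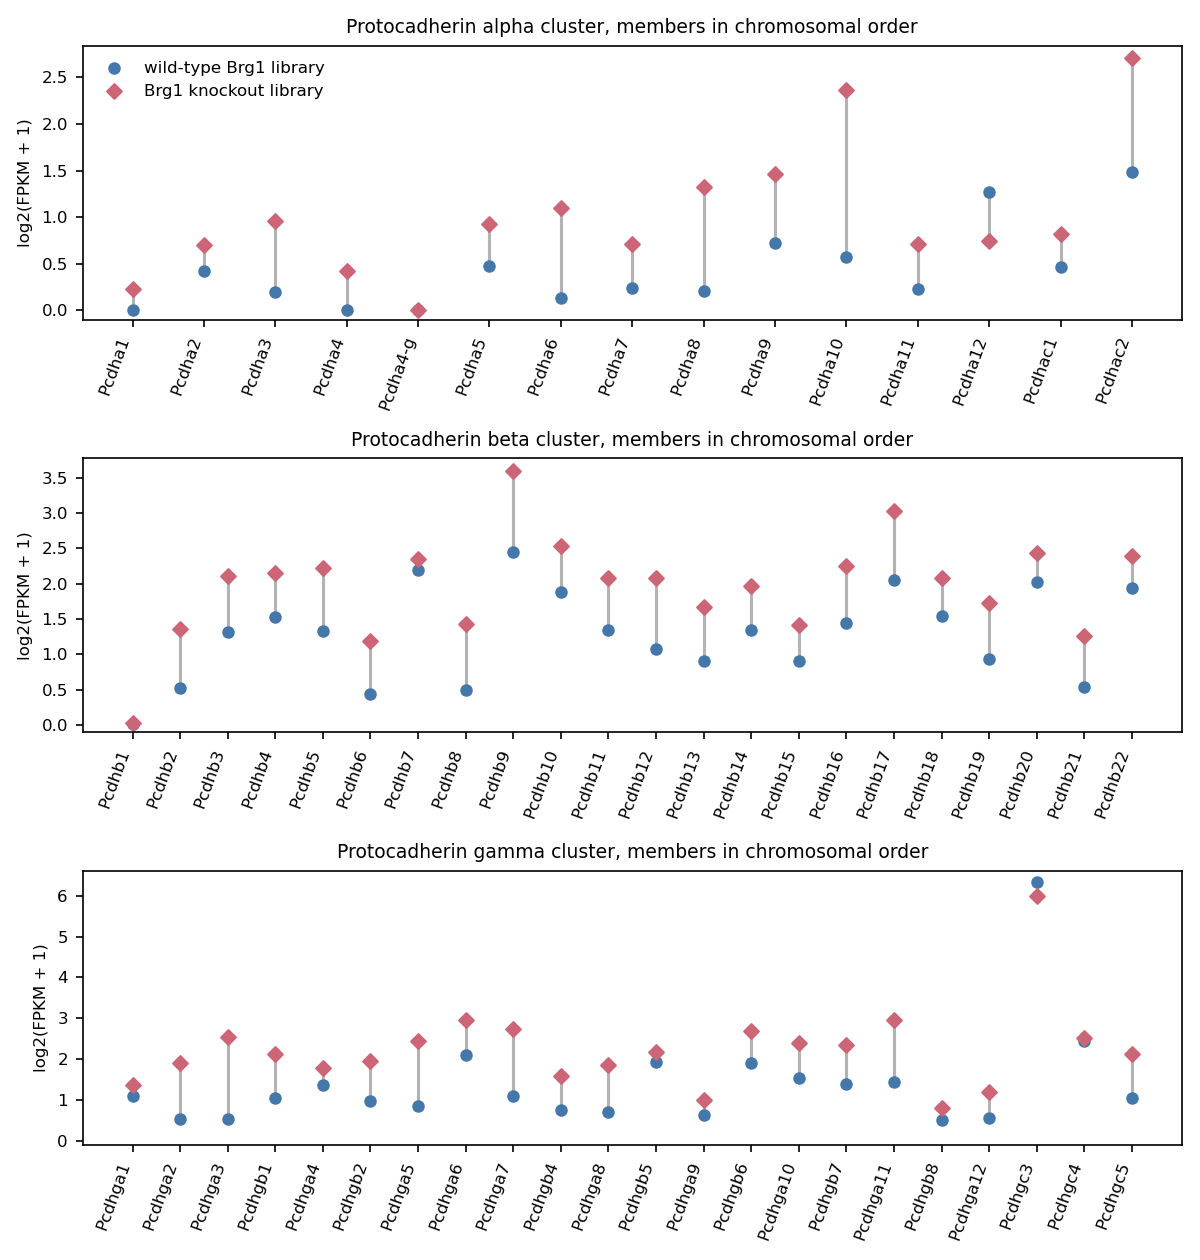
FPKM of each clustered protocadherin record as log2(FPKM + 1), by chromosomal order within the alpha, beta and gamma clusters; circles are the wild-type and diamonds the knockout library, 1 library each, joined by a grey line. Diamonds lie above circles for 14 of 15 alpha, 22 of 22 beta and 21 of 22 gamma records, with Pcdha12 and Pcdhgc3 the exceptions.

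The alpha cluster was the lowest of the clusters in both libraries and had the largest ratio of summed FPKM. Its 15 records summed to 6.21 and 19.8 FPKM, a 3.19-fold difference of sums. The cluster spans 36930285 to 37187660 on chromosome 18 (mm10), apart from the record Pcdha4-g, which runs from the alpha into the gamma cluster and was at or near 0 in both libraries. In the wild-type library 2 alpha records, Pcdha12 and Pcdhac2, reached 1 FPKM, and in the knockout library 5 did. Of the 6 expressed records 3 passed 2-fold upward and 0 downward, beside 16.1% and 8.67% of all expressed records, with a median log2 ratio of 1.05. This median was 0.96 after centring on the median of expressed records and 0.48 over all 15 records, where the beta median over all records was 0.75 and the gamma median 0.86. With 0.1 FPKM added the alpha median was 2.12.

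Pcdha10 had the largest difference among the alpha genes, with 0.487 and 4.15 FPKM (log2 ratio 1.79), and it went from 7.84% to 21.0% of the alpha sum. Pcdha8 had 0.151 and 1.51 FPKM (log2 ratio 1.12), 10.0 times as much. Pcdha6 had 0.0962 and 1.14 FPKM, 11.9 times as much, but with 1 FPKM added its log2 ratio was 0.97. Pcdha6 and Pcdha8 were barely detected in the wild-type library, whereas Pcdha10 was already among its higher alpha genes. Pcdha9 had 0.648 and 1.76 FPKM (log2 ratio 0.74). Pcdha12, the variable gene nearest to the C types, went the other way, with 1.42 and 0.671 FPKM (log2 ratio -0.53), and its share of the alpha sum was 22.9% in the wild-type and 3.39% in the knockout library. Pcdha1 and Pcdha4 were close to 0 in the wild-type library and had 0.176 and 0.336 FPKM in the knockout library. The order of levels among the 12 variable alpha genes was only loosely shared between the libraries (Spearman's rho 0.45 across genes, a description).

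Both alpha C types were higher in the knockout library. Pcdhac2 had 1.79 and 5.53 FPKM (log2 ratio 1.23) and was the most abundant alpha gene in both libraries, with 28.9% and 28.0% of the sum. Pcdhac1 had 0.383 and 0.763 FPKM (log2 ratio 0.35).

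All 22 beta genes were higher in the knockout library, by amounts that varied among them. Their sum was 36.9 and 74.7 FPKM, a 2.03-fold difference. The median of the 22 was 1.53 and 3.25 FPKM. With 1 FPKM added, 2 of the 21 expressed beta genes reached 2-fold, a smaller share than the 16.1% of all expressed records, and 0 of them were lower, beside 8.67%; the median log2 ratio was 0.75. With 0.1 FPKM added, 13 of the 21 reached 2-fold, beside 21.4% of all expressed records. On the FPKM scale the 21 genes were 1.14 to 4.11 times as high in the knockout library, with a median of 2.20. The beta family thus differed by a moderate factor, and how many members passed 2-fold depended on the added constant.

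Pcdhb9 was the most abundant beta gene in both libraries, with 4.46 and 11.1 FPKM (log2 ratio 1.15). Pcdhb17 had 3.14 and 7.14 FPKM (log2 ratio 0.98), and Pcdhb12 had 1.11 and 3.22 FPKM (log2 ratio 1.0008), just at the 2-fold rule. Pcdhb7 differed least among the expressed beta genes, with 3.58 and 4.09 FPKM (log2 ratio 0.15), and the deposited bounds of its 2 values overlapped. Pcdhb8 had the largest factor on the FPKM scale, with 0.415 and 1.71 FPKM. Pcdhb1, the first gene of the cluster, was near 0 in both libraries (0.0141 and 0.0234 FPKM). The order of the beta genes by level was nearly the same in both libraries (Spearman's rho 0.94 across 22 genes), and the log2 ratio had little relation to position along the cluster (rho -0.14). Both correlations are descriptions across genes of the same libraries. For 11 beta genes the deposited FPKM lay outside its own deposited bounds in at least 1 library. From the midpoints of the bounds 1 beta gene, Pcdhb9, reached 2-fold and the median log2 ratio was 0.66.

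In the gamma cluster the A and B types were higher in the knockout library while the most abundant member, Pcdhgc3, was not. The 12 gamma A genes summed to 14.0 and 44.3 FPKM (3.15-fold), and the 7 gamma B genes to 10.3 and 22.0 FPKM (2.13-fold). All 12 and all 7 had a higher FPKM in the knockout library. The 3 gamma C types summed to 84.8 and 71.1 FPKM. The whole cluster therefore differed by 1.26-fold in sum, and by 2.49-fold without Pcdhgc3 (29.9 and 74.3 FPKM). Of the 20 expressed gamma records 8 passed 2-fold upward and 0 downward, beside 16.1% and 8.67% of all expressed records, with a median log2 ratio of 0.91.

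Pcdhga3 had the largest difference of the clustered genes by log2 ratio, with 0.444 and 4.83 FPKM (log2 ratio 2.01). Pcdhga7 had 1.12 and 5.64 FPKM (log2 ratio 1.65), and Pcdhga5 had 0.809 and 4.40 FPKM (log2 ratio 1.58). Pcdhga11 had 1.71 and 6.74 FPKM (log2 ratio 1.51). Pcdhga6, the most abundant gamma A gene in both libraries, had 3.29 and 6.81 FPKM (log2 ratio 0.87). Pcdhga2 and Pcdhga8 were also at least 2-fold higher, so that 6 of the 11 expressed gamma A genes were, beside 16.1% of all expressed records. Of these 11 genes 5 reached 1 FPKM only in the knockout library. The smallest log2 ratios of the 12 gamma A genes were those of Pcdhga1, with 1.12 and 1.57 FPKM (log2 ratio 0.28), Pcdhga9, with 0.555 and 0.995 FPKM (log2 ratio 0.36), and Pcdhga4, with 1.58 and 2.42 FPKM (log2 ratio 0.41). Without an added constant the ratios were 1.40, 1.79 and 1.53, so that Pcdhga4 came below Pcdhga9.

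Of the 6 expressed gamma B genes Pcdhgb1 alone reached 2-fold, beside 16.1% of all expressed records, with 1.07 and 3.38 FPKM (log2 ratio 1.08). Pcdhgb2 had 0.963 and 2.88 FPKM (log2 ratio 0.98), and Pcdhgb7 had 1.62 and 4.04 FPKM (log2 ratio 0.95). Pcdhgb6 was the most abundant gamma B gene of the knockout library, with 2.74 and 5.42 FPKM (log2 ratio 0.78). Pcdhgb5, the most abundant gamma B gene of the wild-type library, differed least, with 2.83 and 3.50 FPKM (log2 ratio 0.23). Pcdhgb8, annotated as a pseudogene in GENCODE M21 and RefSeq, had 0.419 and 0.734 FPKM.

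Pcdhgc3 was the most abundant protocadherin by far, with 79.3 and 63.0 FPKM (log2 ratio -0.33). The deposited bounds, 77.9 to 82.2 and 62.2 to 65.3 FPKM, did not overlap, but the ratio was -0.15 after rescaling to the same sum. The gene held 72.6% of the gamma sum in the wild-type and 45.9% in the knockout library. Pcdhgc4 had 4.47 and 4.75 FPKM (log2 ratio 0.07, and -0.01 after centring), with overlapping bounds. Pcdhgc5, the last gene of the cluster, had 1.05 and 3.32 FPKM (log2 ratio 1.07, and inside the 2-fold rule after centring). The 3 neighbouring C-type genes thus had a lower, a near equal and a higher value in the knockout library.

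**Figure D2:**
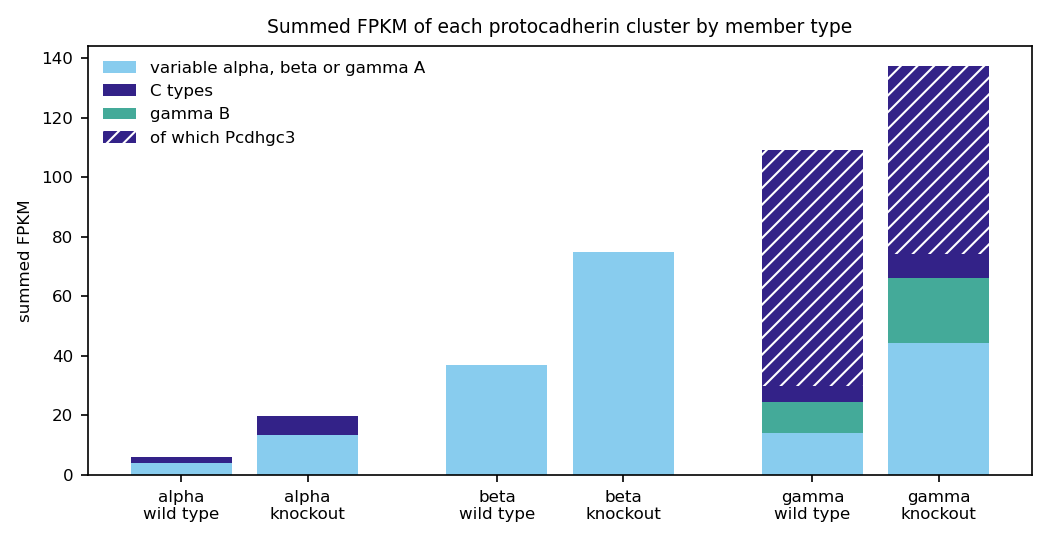
Summed FPKM of the alpha, beta and gamma clusters in the wild-type and knockout libraries (1 library each), stacked by member type; the hatched part is Pcdhgc3. The alpha sum goes from 6.21 to 19.8 FPKM and the beta sum from 36.9 to 74.7 FPKM, while in the gamma cluster the A and B parts are taller in the knockout and the Pcdhgc3 part is shorter (79.3 and 63.0 FPKM).

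How reads of shared exons were divided among genes is not given in the sources used here, and this bears on the alpha and gamma values. In GENCODE M21 transcripts of the same genome build, a median of 60.0% of the 50-base words in an alpha transcript (48.2% to 63.9%, 14 gene models under 13 names, of which 2 are named Pcdha11 and none Pcdha10) also occur in another protocadherin model, and 44.9% of those in a gamma transcript (41.2% to 54.6%, 22 models). For beta transcripts the median was 4.26% (0 to 12.0%, 22 models) and for the 12 non-clustered genes 0%. The alpha and gamma values of single genes are uncertain for this reason. The beta and non-clustered transcripts share few or no such words with other protocadherin models. Sharing with genes outside the family was not examined.

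Of the 12 records inside or next to the clusters 5 had a higher and 7 a lower FPKM in the knockout library. The share higher was 41.7%, beside 45.5% of all records. Between the beta and gamma clusters lie Taf7, of the general transcription factor TFIID, with 3.87 and 3.53 FPKM (log2 ratio -0.10), and the transporter gene Slc25a2, with 0.0953 and 0.160 FPKM. Of these 2 records and the 5 nearest on either side, 9 were expressed, 1 was at least 2-fold higher and 0 lower, beside 16.1% and 8.67% of all expressed records. The median log2 ratio was -0.10, with 0.035 after rescaling to the same sum and -0.31 from the midpoints of the bounds. The 1 higher record was Rell2, after the gamma cluster, with 1.02 and 9.16 FPKM (log2 ratio 2.33).

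**Figure D3:**
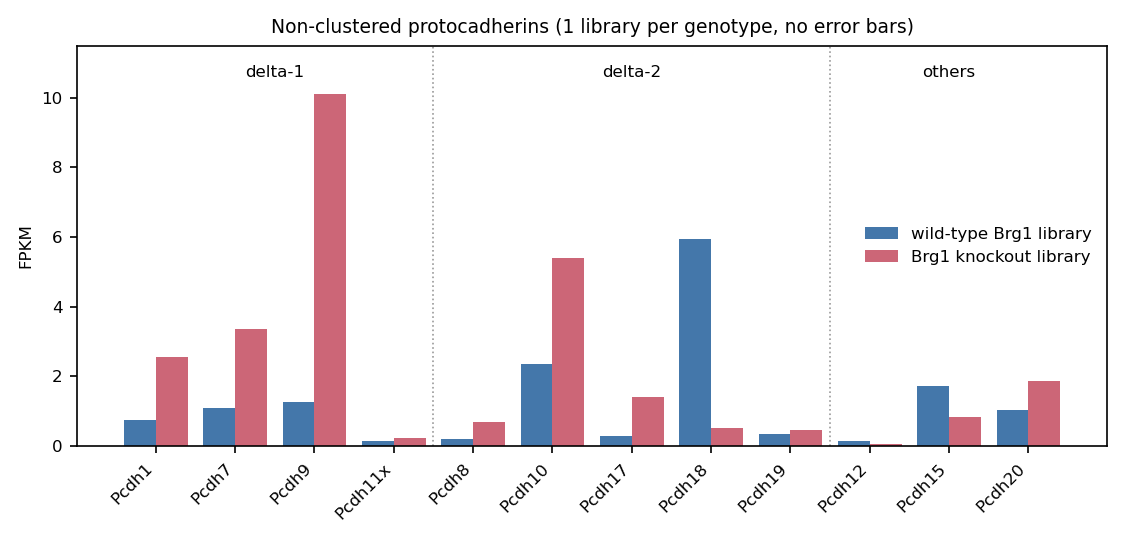
FPKM of the 12 non-clustered protocadherins in the wild-type (blue) and knockout (red) libraries, 1 library each, grouped as delta-1, delta-2 and others. Pcdh9 is the tallest bar of the knockout library (10.1 FPKM) and Pcdh18 the tallest of the wild-type library (5.94 FPKM).

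The non-clustered genes did not all differ in the same direction. Of 12 genes 9 had a higher and 3 a lower FPKM in the knockout library, beside 45.5% of all records higher. Of the 8 expressed ones 3 were at least 2-fold higher and 1 lower, beside 16.1% and 8.67% of all expressed records. The median log2 ratio of the 8 was 0.91 and their mean 0.49, and the median over all 12 was also 0.49. The 3 higher genes were all delta-1 protocadherins. Since sequence upstream of these genes is the only regulatory sequence at hand for them, the 250 bases before the RefSeq start site are shown for the genes with the largest differences in each direction, Pcdh9 and Pcdh18, and for Pcdh10 and Pcdh15 as a further higher and a further lower gene (GRCm38.p6, 5′ to 3′ on the strand of the gene, CG dinucleotides in capitals). They lie at chr14:93890680-93890929 (minus strand), chr3:49757317-49757566 (minus strand), chr3:45378148-45378397 (plus strand) and chr10:73821617-73821866 (plus strand).
Pcdh9: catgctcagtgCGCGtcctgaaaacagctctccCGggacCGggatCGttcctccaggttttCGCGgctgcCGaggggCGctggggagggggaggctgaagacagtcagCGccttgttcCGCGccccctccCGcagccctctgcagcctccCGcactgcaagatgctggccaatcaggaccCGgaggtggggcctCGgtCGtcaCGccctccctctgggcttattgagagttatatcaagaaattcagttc
Pcdh18: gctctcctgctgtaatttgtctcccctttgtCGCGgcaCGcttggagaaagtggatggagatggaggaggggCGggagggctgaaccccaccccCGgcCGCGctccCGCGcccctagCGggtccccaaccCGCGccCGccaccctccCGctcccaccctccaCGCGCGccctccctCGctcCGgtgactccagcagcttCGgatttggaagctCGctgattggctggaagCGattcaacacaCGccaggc
Pcdh10: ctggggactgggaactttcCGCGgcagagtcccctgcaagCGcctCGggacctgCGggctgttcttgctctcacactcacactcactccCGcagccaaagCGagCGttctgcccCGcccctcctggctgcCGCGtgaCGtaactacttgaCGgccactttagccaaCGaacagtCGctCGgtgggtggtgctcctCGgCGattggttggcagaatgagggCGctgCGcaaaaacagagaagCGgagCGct
Pcdh15: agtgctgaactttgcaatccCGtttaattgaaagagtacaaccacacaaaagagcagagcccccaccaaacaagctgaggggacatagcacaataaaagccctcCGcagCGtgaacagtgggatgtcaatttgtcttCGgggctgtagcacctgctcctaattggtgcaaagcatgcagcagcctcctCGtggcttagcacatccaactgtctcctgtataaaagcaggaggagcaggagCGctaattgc
The sequence before Pcdh18, the lowest gene by log2 ratio, held 23 CG dinucleotides, that before Pcdh10 22 and that before Pcdh9 18, while that before Pcdh15 held 6. RefSeq windows were matched for 9 non-clustered genes, Pcdh7, Pcdh8, Pcdh9, Pcdh10, Pcdh15, Pcdh17, Pcdh18, Pcdh19 and Pcdh20, with a median of 16 CG dinucleotides (3 to 23), beside 6 (interquartile range 2 to 16) in 27025 windows of 250 bases, 1 per gene. The other higher genes had 21 (Pcdh17), 16 (Pcdh19), 11 (Pcdh8), 7 (Pcdh7) and 3 (Pcdh20). Dense and sparse CG were thus found before higher genes and before the lower genes, of which only Pcdh18 and Pcdh15 had a window. With both strands searched, the Sp1-type box GGGCGG was found before Pcdh10, Pcdh17, Pcdh18 and Pcdh19 and in 32.9% of all windows. The core promoter box TATAAA was found before Pcdh8 and Pcdh15 and in 13.0% of windows. The GLI motif GACCACCCA (0.211% of windows) was in none of the 9 windows. The E-box CAGCTG, present in 12.8% of windows, was likewise found before 0 of the 9 genes, and so was the E-box variant CAGATG, present in 14.5%. No match overlapped a match of another motif. A match is a description of letters and shows no binding. The deposited Pcdh9 record starts 1947 bases from the RefSeq start used for its window.

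Among the delta-1 genes, which carry long cytoplasmic tails, Pcdh9 differed most. It had 1.27 and 10.1 FPKM (log2 ratio 2.29), 7.96 times as much, and it went from 8.30% to 36.8% of the non-clustered sum. Pcdh7, which binds protein phosphatase 1, had 1.10 and 3.36 FPKM (log2 ratio 1.06). Pcdh1, which lies on chromosome 18 beyond the gamma cluster (38196694 to 38209762), had 0.744 and 2.55 FPKM (log2 ratio 1.02). Both Pcdh7 and Pcdh1 were inside the 2-fold rule after centring on the median, and Pcdh1's FPKM lay outside its own deposited bounds in both libraries. The X-linked Pcdh11x was low in both, with 0.148 and 0.243 FPKM.

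Of the 5 delta-2 genes 4 had a higher FPKM in the knockout library and 1, Pcdh18, a lower one, beside 45.5% of all records higher. Pcdh18, whose protein binds the reelin adaptor Dab1, had 5.94 and 0.530 FPKM (log2 ratio -2.18). It was the second most abundant protocadherin of the wild-type library after Pcdhgc3 and was below 1 FPKM in the knockout library, the 1 protocadherin at least 2-fold lower. Pcdh10, whose protein recruits Nckap1 of the WAVE actin regulatory complex, had 2.36 and 5.40 FPKM (log2 ratio 0.93). Pcdh17, which acts in axon growth and at synapses, had 0.290 and 1.41 FPKM (log2 ratio 0.90). The FPKM of Pcdh17 lay outside its own deposited bounds in both libraries, and the log2 ratio from bound midpoints was 0.99. Pcdh8, an activity-regulated gene of synapses, had 0.215 and 0.699 FPKM (log2 ratio 0.48). Pcdh19, an X-linked gene whose human counterpart is mutated in a female-limited epilepsy, had 0.336 and 0.458 FPKM (log2 ratio 0.13), with overlapping bounds.

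The other non-clustered genes were low. Pcdh15, which forms tip links of sensory hair cells and is also expressed in oligodendrocyte precursors, had 1.72 and 0.844 FPKM (log2 ratio -0.56), with bounds that did not overlap. Of the 4 oligodendrocyte precursor markers 3 were lower by the 2-fold rule and 0 higher, beside 8.67% and 16.1% of all expressed records. Among the 3 was Pdgfra (45.3 and 15.3 FPKM). The part of these markers in the Pcdh15 difference was not tested. Pcdh12, an endothelial protocadherin, was near 0 in both libraries, with 0.145 and 0.0451 FPKM (log2 ratio -0.13) and overlapping bounds. Of the 6 endothelial markers 5 were expressed, 2 at least 2-fold higher and 0 lower, beside 16.1% and 8.67% of all expressed records. The 2 were Pecam1 (1.29 and 4.27 FPKM) and Ly6c1 (10.2 and 66.5 FPKM). Cdh5 had 1.43 and 1.97 FPKM (log2 ratio 0.29). The part of these markers in the Pcdh12 difference was not tested. Pcdh20 had 1.05 and 1.87 FPKM (log2 ratio 0.49, and 0.33 from bound midpoints). Its knockout FPKM lay outside its own deposited bounds.

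**Figure D4:**
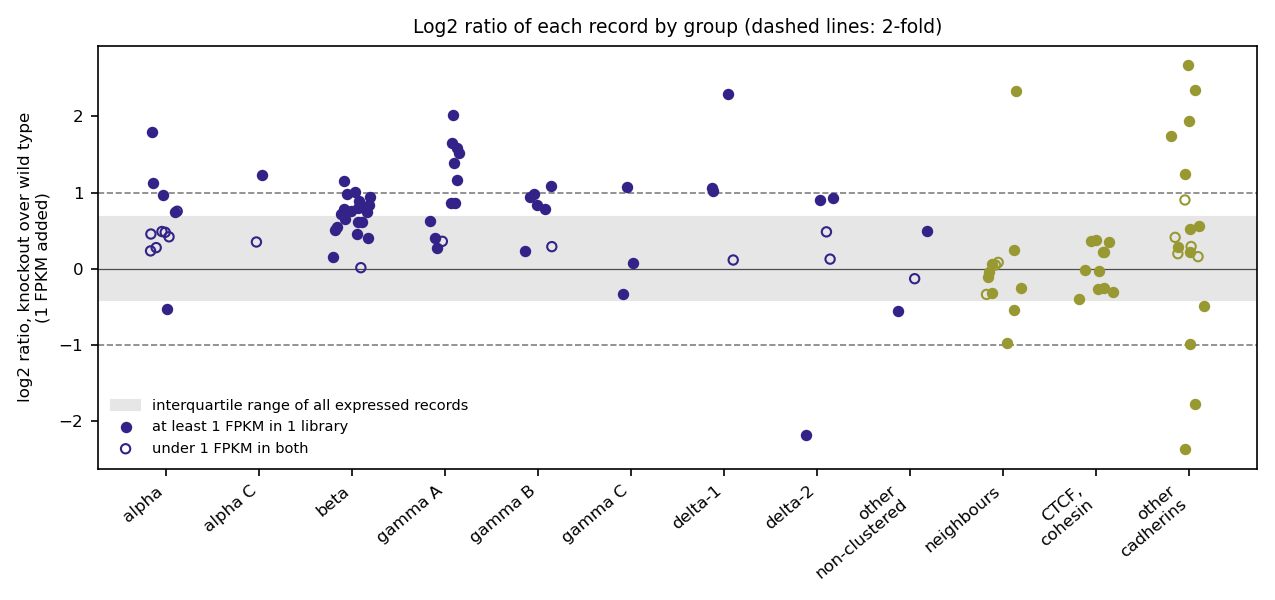
Log2 ratio of knockout over wild type (1 FPKM added) for every protocadherin record except Pcdha4-g by type, with neighbouring records, CTCF and cohesin genes and other cadherins for comparison. Filled points reached 1 FPKM in at least 1 library and open points did not. The grey band is the interquartile range of all expressed records (-0.41 to 0.68) and dashed lines mark 2-fold. Gamma A points reach the highest values of the clustered types (up to 2.01), and Pcdh18 is the lone protocadherin below the lower line.

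Genes that act on the clusters or with their proteins are given from lists chosen for their roles. CTCF and the cohesin ring loop a distant enhancer to the chosen promoter. Of 11 such genes 0 were at least 2-fold higher or lower, beside 16.1% and 8.67% of all expressed records. Their median log2 ratio was -0.02, with 0.14 after rescaling to the same sum and -0.30 from the midpoints of the bounds. Rad21 of cohesin had 45.5 and 36.6 FPKM, and the cohesin loader gene Mau2 had 23.9 and 27.9 FPKM. Of 7 genes that help to silence the clusters 6 were expressed, 1 was at least 2-fold lower and 0 higher, with a median of -0.41, beside 8.67% and 16.1% of expressed records. The lower one was Trim28, a corepressor, with 134 and 60.3 FPKM (log2 ratio -1.14), but -0.98 from the midpoints of the bounds. Setdb1, a histone H3 lysine methyltransferase that acts with it, had 19.7 and 10.7 FPKM (log2 ratio -0.82).

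Of 17 listed genes of protocadherin partners and processing 16 had a record, all expressed, 3 were at least 2-fold higher and 0 lower, with a median of 0.42. These were Cyfip2 (7.48 and 35.2 FPKM, log2 ratio 2.09) and Nckap1 (36.3 and 75.6 FPKM, log2 ratio 1.04) of the WAVE complex, and Ret, a receptor tyrosine kinase gene (0.960 and 3.27 FPKM, log2 ratio 1.12). Ppp1ca, of protein phosphatase 1, had 170 and 141 FPKM. The 3 higher genes are 18.8% of the 16, near the 16.1% of all expressed records.

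Other members of the cadherin superfamily differed in both directions. Of 18 other cadherins 13 were expressed, 5 at least 2-fold higher and 2 lower, beside 16.1% and 8.67% of expressed records, with a median log2 ratio of 0.52. Cdh18 (0.179 and 6.54 FPKM) and Cdh7 (0.771 and 8.04 FPKM) were higher, and Cdh4 (15.7 and 2.22 FPKM) and Cdh20 (26.0 and 6.88 FPKM) were lower. Cdh2, the N-cadherin gene, had 20.8 and 24.3 FPKM. Of the large cadherins 7 were expressed, 1 at least 2-fold higher and 0 lower, beside 16.1% and 8.67% of expressed records, with a median of -0.58. The higher one was Fat2, a granule cell gene (1.05 and 23.0 FPKM, log2 ratio 3.55). Celsr2 (31.3 and 17.8 FPKM) and Celsr3 (30.2 and 19.8 FPKM) stayed within 2-fold.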

How the data were processed

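Total RNA from 2 dissected tumours was sequenced on an Illumina instrument, per the labels' protocols. Per the file headers, the authors deposited gene FPKM, 2 bounds around each and a status. Cuffdiff 2.1.1 and the build mm10 appear, with no stated role, in the submitters' processing notes. Which aligner and annotation were used, and how bounds were set, is not given in the sources used here. These tables hold no read counts, and depth is unknown. Among 560 records between 0.005 and 0.05 FPKM in both libraries the fullest bin of log2 ratios held 47 (8.39%). Whole reads were not derived from these values, and whether they could be was not tested. Records were joined by symbol and locus. File starts count from 0; coordinates here count from 1. All 71 protocadherin records had status OK and 1 locus each. A fixed 2-fold rule on log2((FPKM + 1) ratios) took the place of a test.

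Every non-clustered and C-type gene is named, and in each of the alpha, beta, gamma A and gamma B types the 3 with the highest mean and the 3 with the largest absolute log2 ratio; other lists give their 2 most abundant genes and up to 3 past 2-fold. Other genes were named after their values were seen. Members and lists were chosen with earlier results of these data known. Wapl was found as Wapal, and 2 listed symbols, Brk1 and Dchs2, had no record under that name. Promoter sequences are from RefSeq (GRCm38.p6); shared words were counted in GENCODE M21 transcripts. Alternatives were other pseudocounts, scalings, filters, thresholds, bound midpoints and cluster sums without the most abundant member. Scripts were tested on simulated data. Calculations used pandas 2.3.3 and numpy 2.4.6 under Python 3.11.15, with plots from matplotlib 3.10.9.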

Additional observations from a re-analysis of the deposited data

How the results depend on the processing

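The direction of each cluster's sum and of each subfamily's median was the same under every alternative run, and the status filter changed no value. Counts of records at least 2-fold higher depended on the added constant and the cutoff. With 0.1 FPKM added they were 5 alpha, 13 beta, 14 gamma and 5 non-clustered, beside 21.4% of all expressed records, and with 0.5 FPKM 7 beta and 5 non-clustered, beside 19.1%. At 1.5-fold they were 5 alpha, 16 beta, 15 gamma and 5 non-clustered, beside 28.1%, and at 4-fold 0 alpha, 0 beta, 1 gamma and 1 non-clustered, beside 4.17%. Among records of at least 5 FPKM they were 1 of 1 alpha, 1 of 2 beta, 2 of 5 gamma and 1 of 3 non-clustered, beside 15.8%, since fewer records remain. The beta count was 5 after rescaling to the same sum, 1 after division by the upper quartile, 1 after centring and 1 from bound midpoints, and the non-clustered count was 1 after centring. The shares over all expressed records were 19.5%, 15.4%, 14.1% and 15.7% under these 4 settings.

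The alpha median log2 ratio was 2.12 with 0.1 FPKM added, 1.43 with 0.5 FPKM, 0.96 after centring, 0.48 without a filter, 0.98 with a mean of at least 1 FPKM and 0.89 as a mean over records. The beta median was 1.09 with 0.1 FPKM added and 1.06 at 5 FPKM. The gamma median was 1.34 with 0.1 FPKM added, 1.09 with 0.5 FPKM and 1.04 after rescaling, and the non-clustered median 1.35, 1.16 and 1.02, and 0.49 without a filter. The log2 ratio of summed beta FPKM was 1.02, and 0.98 by upper quartile, 0.98 from bound midpoints and 0.97 without Pcdhb9; that of the gamma sum was 0.33, and 1.31 without Pcdhgc3.

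After rescaling to the same sum the CTCF and cohesin median was 0.14 and that of the neighbours 0.035, both reversed, and from bound midpoints the medians were -0.30 and -0.31. The count of lower silencing genes was 0 after rescaling, 0 from midpoints, 2 at 1.5-fold and 0 at 4-fold. Of all expressed records 6.56%, 8.72%, 18% and 1.5% were lower under these settings. Of 16 partner genes 6 were higher at 1.5-fold, beside 28.1% of expressed records, and 1 at 4-fold, beside 4.17%. At 4-fold 2 of 13 other cadherins were higher and 1 lower, beside 4.17% and 1.5%. Of 7 expressed large cadherins 2 were lower with 0.1 FPKM added, beside 10.9% of expressed records. At 1.5-fold 2 were higher and 3 lower, beside 28.1% and 18%. Of 9 expressed neighbours 1 was lower with 0.1 FPKM added, 1 with 0.5 FPKM, 1 after centring and 1 at 1.5-fold. The shares of expressed records lower were 10.9%, 9.86%, 10.2% and 18% in the same order. The cause of these changes was not tested. Depth is unknown and sets no stated limit. No paired analysis was possible because there is 1 library per genotype.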

Other observations

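In 14 protocadherins, 11 of them beta genes, the FPKM lay outside its own bounds in at least 1 library, which is 19.7% of the 71 beside 33.6% of all records; this held for 0 alpha and 0 gamma genes.

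The likeness between the libraries in the order of the genes by level differed between clusters: Spearman's rho across genes was 0.94 for 22 beta genes, 0.60 for the 19 gamma A and B genes and 0.45 for 12 alpha genes. The genes of a cluster share a library and, in the alpha and gamma clusters, exons, so these are descriptions. The log2 ratio had rho 0.28 with position along the alpha genes and -0.27 along the gamma A and B genes.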
